A study of Drosophila melanogaster with 7 samples.

Results

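The 10 genes described here encode the subunits of the nicotinic acetylcholine receptors of Drosophila melanogaster, 7 alpha subunits (nAChRalpha1 to nAChRalpha7) and 3 beta subunits (nAChRbeta1 to nAChRbeta3). They were chosen by their FlyBase symbols, and the choice itself used no measured value, but earlier results of these data were known. All 10 were found among the 17753 genes of the count table. RNA was sequenced from 7 control cultures of primary neurons of the genotype w1118, the only condition analysed here. Nervous systems of 3 larvae were dissociated for each culture and kept 7 days in vitro, so 1 value stands for pooled animals and for all cells that survived in the dish. The table holds the number of reads per gene, and libraries are named here by their total count because the column names give the condition but not the replicate number. No source used here says whether the cultures were set up on separate days, so the p-values below measure the spread between these 7 libraries only.

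Nicotinic receptors are pentameric ion channels opened by acetylcholine, the main fast excitatory transmitter of the fly central nervous system. Each channel is built from alpha subunits alone or from alpha and beta subunits, and the alpha subunits carry the pair of neighbouring cysteines that marks the ligand-binding face. The combination of subunits sets the pharmacology of the channel, and these subunits are the targets of neonicotinoid and spinosyn insecticides.

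The 7 libraries held 21178515 to 33891136 counts (median 26847346), and counts were divided by the library total and are given as CPM, the count scaled to a common library total. No 2 libraries were alike within sampling noise (21 pairs). All 12 neuron markers were detected, with a summed level of 7328 to 9851 CPM, and the 8 glia markers summed to 164 to 213 CPM. The neuronal RNA-binding protein gene elav had 700 ± 62.4 CPM and the glial transcription factor gene repo 17.8 ± 1.76 CPM (SD, n = 7). The library of 26847346 counts stood apart, with 1371 CPM over 13 photoreceptor genes against 111 to 343 CPM in the other 6, and 525 CPM for the opsin gene ninaE. This library also had the highest sums of yolk, fat body, hemocyte and muscle markers, the last including the myosin gene Mhc at 70.7 CPM. For 8 of the 10 subunits its value lay inside the range of the other libraries, with nAChRbeta2 lowest and nAChRbeta3 highest of all there. The library of 28537973 counts had the lowest neuron score, the mean log2(CPM + 1) of the 12 neuron markers, at 8.40 against 8.59 to 8.77 in the others. It also had the lowest CPM for 8 of the 10 subunits and the highest sum of the glia markers (213 CPM, against 164 to 202 CPM in the others).

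All 10 subunits passed the detection limit of 10 counts in every library, which 9476 genes passed. The lowest single value was 42 counts for nAChRbeta3, and the lowest for any other subunit was 892 counts for nAChRalpha3. Summed over the 10 genes, the level was 1235 ± 130 CPM (SD, n = 7), with 1037 CPM in the library of 28537973 counts and 1409 CPM in the library of 33891136 counts.

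Of the 10 genes, 3 lie next to each other on the right arm of chromosome 3, within 121 kb (3R, 24393896 to 24515106, dm6 coordinates). The gene nAChRalpha1 (FBgn0000036) is transcribed from the minus strand and spans 24393896 to 24457157, nAChRalpha2 (FBgn0000039) from the plus strand over 24485428 to 24491147, and nAChRbeta2 (FBgn0004118) from the minus strand over 24509228 to 24515106. Only 1 other protein-coding gene, CG31128, is annotated between the ends of this group. The alpha subunit nAChRalpha1, in which mutations give resistance to neonicotinoids, had 331 CPM in the lowest library, a median of 349 CPM and 419 CPM in the highest. It had the most reads of the 10 subunits in every library, and its level varied little, by 1.26 times between the extremes. The alpha subunit nAChRalpha2 had 91.8, 101 and 105 CPM in the lowest, median and highest library. Its coefficient of variation (CV, the SD as a percentage of the mean) of 4.84% was the smallest of the 10. The beta subunit nAChRbeta2 had 132, 135 and 154 CPM in the lowest, median and highest library. Its 6 lower libraries lay close together at 132 to 138 CPM and the library of 25149314 counts lay above them.

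The subunits nAChRalpha5, nAChRalpha6 and nAChRalpha7 are the ones most like the vertebrate alpha7 subunit, which forms channels without a beta subunit. The gene nAChRalpha5 (FBgn0028875, 2L, 14040170 to 14094401, plus strand) had 63.9, 100.4 and 137 CPM in the lowest, median and highest library. With a CV of 26.1% it had the widest relative spread of the 10, and the highest and the lowest library differed by 2.15 times, where counting alone gives a CV of 1.89%. The gene nAChRalpha6 (FBgn0032151, 2L, 9793317 to 9886250, minus strand), which encodes the target of the insecticide spinosad and whose transcripts are edited by the adenosine deaminase Adar, had 80.5, 101 and 137 CPM in the lowest, median and highest library. The gene nAChRalpha7 (FBgn0086778, X, 19327075 to 19348447, minus strand), whose product is needed for the escape response of the giant fiber circuit, had 179, 226 and 249 CPM. The 3 genes had their lowest value in the library of 28537973 counts and their highest in that of 33891136 counts.

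The remaining alpha subunits and nAChRbeta1 lie apart from each other in the genome. The gene nAChRalpha3 (FBgn0015519, X, 8276200 to 8367169, minus strand) had 32.3, 52.4 and 57.0 CPM in the lowest, median and highest library. The gene nAChRalpha4 (FBgn0266347, 3L, 23206669 to 23287448, plus strand), a mutant of which sleeps less and is called redeye, had 84.9, 97.3 and 127 CPM. The gene nAChRbeta1 (FBgn0000038, 3L, 4429349 to 4435993, plus strand), whose product is a partner subunit in many of the neonicotinoid-sensitive channels, had 34.4, 49.6 and 54.9 CPM. For these 3 genes too the library of 28537973 counts was lowest, and that of 28628408 counts was highest. Of the exon bases of nAChRalpha3, 2.39% are shared with CG1636 on the opposite strand, and 4.08% of those of nAChRalpha4 with the long non-coding RNA lncRNA:CR46475. Annotated transposable elements also share exon bases with nAChRalpha4, at most 5.80% with any single element. How reads there were counted was not tested.

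The subunit nAChRbeta3 (FBgn0031261, 2L, 545129 to 547096, plus strand) stood far below the others, with 1.63, 2.55 and 3.54 CPM in the lowest, median and highest library, or 42 to 95 counts. Its CV of 21.9% includes a part of 11.9% from counting alone. All of its exon bases (100%) lie within an exon of Ets21C, an ETS-family transcription factor gene on the opposite strand with 67.4 ± 5.98 CPM (SD, n = 7). The strand setting used for this table is not given in the sources used here. Of 137 genes with all exons inside exons of an opposite-strand gene, 118 had a count. For 49 of the 137, with or without a count of their own, the outer gene's count, scaled by length, gave a share of at least 100. Of the 49, 33 had under 10% of that share and 2 reached it. For nAChRbeta3 the share was 519, against a mean of 71.1 counts. Whether reads of this pair were fully separated was not tested, so the values of nAChRbeta3 are uncertain. The log2(CPM + 1) of nAChRbeta3 and Ets21C had a Pearson's r of 0.53 (exact permutation p = 0.204) and a Spearman's rho of 0.14 (exact permutation p = 0.783) over the 7 libraries.

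**Figure D1:**
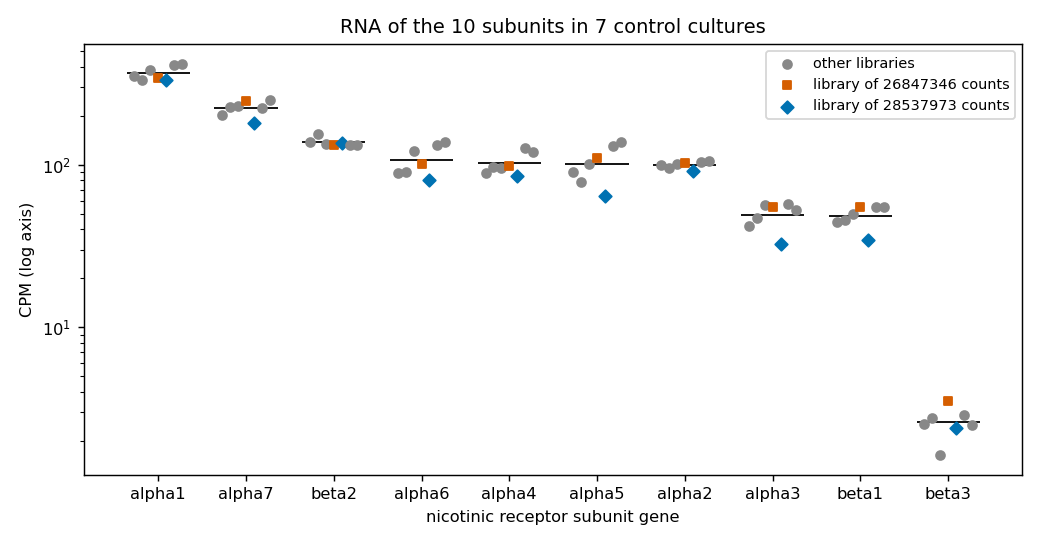
CPM of each subunit gene (log axis) in the 7 control cultures, with 1 point per library and a line at the mean; genes run from the highest to the lowest mean. The library of 28537973 counts is lowest for 8 of the 10 genes, and nAChRbeta3 lies between 1.63 and 3.54 CPM, below every other subunit in every library.

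Longer transcripts give more reads, so the subunits were compared with each other as CPM per kb of exon, the union of all annotated exons of the gene. On this scale nAChRalpha2 was highest at 41.8 ± 2.02 CPM per kb, followed by nAChRalpha7 at 38.4 ± 4.23, nAChRbeta2 at 34.1 ± 1.94 and nAChRalpha1 at 33.2 ± 3.35 CPM per kb (SD, n = 7). The next 4 were nAChRalpha4 at 16.8 ± 2.59, nAChRbeta1 at 16.3 ± 2.53, nAChRalpha6 at 13.8 ± 2.93 and nAChRalpha5 at 10.8 ± 2.83 CPM per kb. The lowest were nAChRalpha3 at 4.65 ± 0.866 and nAChRbeta3 at 1.71 ± 0.375 CPM per kb. The median of the 10 subunits was 16.5 CPM per kb, against 12.5 CPM per kb over the 9403 detected genes with an annotated length. Among these detected genes the subunits lay between percentile 12.4 for nAChRbeta3 and percentile 84.0 for nAChRalpha2.

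Each pair of subunits was compared within the same culture by an exact two-sided sign-flip test on the differences of log2(CPM per kb + 0.1), adjusted by the Benjamini-Hochberg method over all 45 pairs. With 7 cultures the smallest p is 0.015625, which is adjusted to 0.0167. Of the 45 pairs, 42 passed an adjusted p of 0.05. The 3 pairs that did not were neighbours in the order. The log2 difference was 0.16 ± 0.20 (SD, n = 7) for nAChRalpha7 over nAChRbeta2, with the first higher in 6 of 7 cultures (exact sign-flip test, adjusted p = 0.0818). It was 0.04 ± 0.20 for nAChRbeta2 over nAChRalpha1 in 4 of 7 cultures (exact sign-flip test, adjusted p = 0.578). For nAChRalpha4 over nAChRbeta1 it was 0.05 ± 0.16 in 4 of 7 cultures (exact sign-flip test, adjusted p = 0.447). The other 6 neighbouring pairs kept their order in 7 of 7 cultures. The step from nAChRalpha1 down to nAChRalpha4 was 0.98 ± 0.12 on the log2 scale, and the 4 highest subunits were separated from the 6 others by it.

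The order depended on which length was used, and the subunits differ in their 3′ untranslated regions (3′ UTRs). The longest annotated 3′ UTR has 7843 bases in nAChRalpha1, 6757 in nAChRalpha3 and 5083 in nAChRalpha5, but 143 bases in nAChRbeta3 and 135 in nAChRalpha2. Per kb of the longest coding sequence, nAChRalpha1 was first at 204 ± 20.6 CPM per kb and nAChRalpha2 sixth at 57.8 ± 2.80 CPM per kb (SD, n = 7). The gene nAChRalpha7 was second (131 ± 14.4), nAChRbeta2 came next (88.0 ± 5.01), nAChRalpha3 was ninth (20.5 ± 3.82) and nAChRbeta3 was last (1.98 ± 0.434 CPM per kb) on this scale, as they were per kb of exon. Which 3′ UTR lengths were in use in these cultures was not measured by gene counts.

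**Figure D2:**
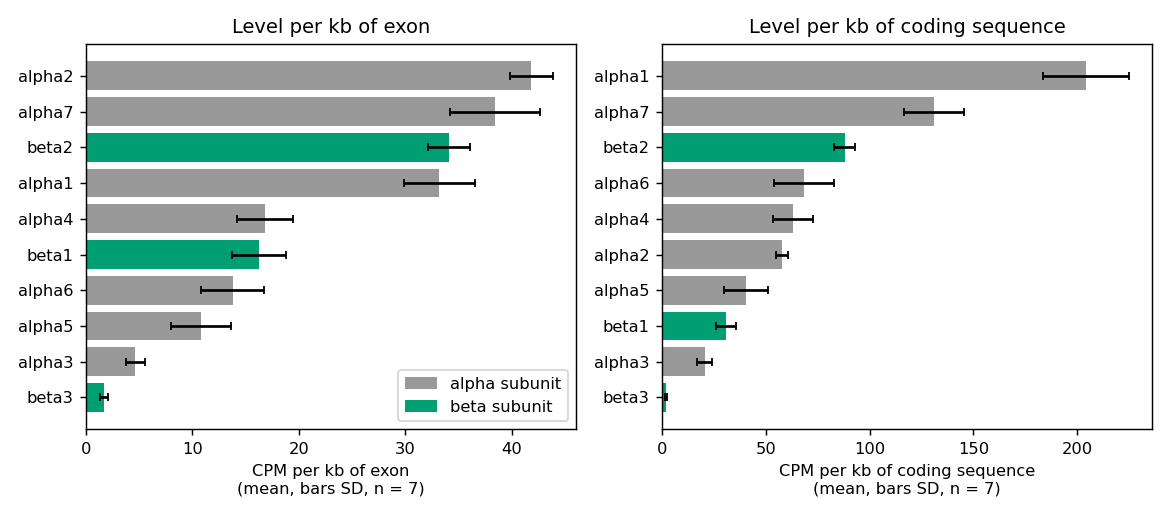
Mean level of each subunit per kb of exon (left) and per kb of coding sequence (right), with the SD over 7 cultures as bars and the genes in the order of each scale. nAChRalpha2 is first at 41.8 CPM per kb of exon and sixth at 57.8 CPM per kb of coding sequence, while nAChRbeta3 is last on both.

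As shares of the summed CPM per kb of exon, nAChRalpha2 made up 19.8 ± 0.949%, nAChRalpha7 18.1 ± 1.05%, nAChRbeta2 16.3 ± 1.99% and nAChRalpha1 15.7 ± 0.848% (SD, n = 7). The 3 neighbouring genes on chromosome 3R together held 51.8 ± 2.88%, with 48.8% in the library of 33891136 counts and 56.6% in that of 28537973 counts. The summed beta subunits stood at 0.329 ± 0.0291 of the summed alpha subunits per kb of exon, between 0.290 and 0.371. The lowest ratio was in the library of 33891136 counts and the highest in that of 25149314 counts. These are shares of RNA, and how many channels of each composition the cells carried was not measured.

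The spread between cultures beyond counting was described by the biological coefficient of variation (BCV), the square root of the dispersion that edgeR fits for each gene. The median over all 9476 genes was 0.152. The steadiest subunits were nAChRbeta2 with 0.0926 (percentile 6.07 of all genes) and nAChRalpha2 with 0.0981 (percentile 10.6), and nAChRalpha1 (0.111) and nAChRalpha7 (0.116) also lay below the median. The genes nAChRalpha4 and nAChRbeta1 were near the median with 0.144 and 0.154. The genes nAChRalpha3 (0.172), nAChRalpha6 (0.178) and nAChRalpha5 (0.209, percentile 66.8) lay above it. The highest value, 0.303 for nAChRbeta3, was that of the gene with the fewest counts. A library was called far from the others when the gap that set it apart, as a part of the range of the 7 values, was above Dixon's critical value, which held for 6.72% of the 9476 genes. Among the subunits 1 of 10 met this limit, nAChRbeta2 through the library of 25149314 counts.

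Whether the subunits varied together was measured by the correlation of log2(CPM + 1) over the 7 cultures for all 45 pairs. The median Pearson's r was 0.70 (from -0.62 to 0.98), against 0.03 over the 44892550 pairs of detected genes. In 17 of the 45 pairs (37.8%) r was at least 0.8, against 2.48% of all pairs of detected genes. Genes of some other lists also varied together, with a median r of 0.64 for the cholinergic genes, 0.62 for the hemocyte genes and 0.53 for the neuron markers. It was lower for the neuroblast genes (0.42) and the glia genes (0.25). For the related anion channels it was 0.09, and for a list of receptor accessory genes -0.01. The median r was above that of the subunits for the yolk genes (0.98), the photoreceptor genes (0.91) and the muscle genes (0.74). The points of every pair are the same 7 libraries, and a part of library composition in these correlations was not tested.

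The highest r was that of nAChRalpha2 and nAChRalpha5, at 0.98 (exact permutation of all pairings, p = 0.000198, adjusted over 45 pairs 0.00893), with a Spearman's rho of 1 (exact permutation p = 0.000397, adjusted 0.0179). Without the 2 cultures farthest from the median of nAChRalpha2, r was 1.00. The next pairs to pass were those of nAChRbeta1 with nAChRalpha2, nAChRalpha3 and nAChRalpha5, and those of nAChRalpha6 with nAChRalpha1, nAChRalpha4 and nAChRalpha5. In all, 7 of the 45 pairs had an adjusted p under 0.05 and 22 an unadjusted p under 0.05 by the exact permutation test. By rank correlation, 7 pairs had an adjusted p under 0.05, but not the same 7. Those of nAChRalpha6 with nAChRalpha1 (adjusted exact permutation p of rho 0.0554) and nAChRalpha4 (0.0765) did not pass by rank. Nor did that of nAChRalpha3 with nAChRbeta1 (0.0765). The pairs of nAChRalpha2 with nAChRalpha6 and of nAChRbeta1 with nAChRalpha4 and nAChRalpha6 passed only by rank. The count by Pearson's r was 20 with TMM scaling, a scaling to a reference library that discounts extreme genes. With 6 libraries the smallest exact permutation p is 0.00139, which is adjusted to 0.0625 where 1 pair alone reaches it, so counts with a library left out are limited by the smaller design. The count was then 0 without the library of 21178515, 25149314, 25710679, 28537973 or 33891136 counts, 2 without that of 28628408 and 13 without that of 26847346 counts. The r of the 7 pairs themselves stayed between 0.83 and 0.99 as each library was left out. The median r stayed between 0.53 and 0.79 as each library was left out.

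The beta subunits nAChRbeta2 and nAChRbeta3 had the lowest median r with the other subunits. The gene nAChRbeta2 had a negative r with 8 of the other 9 subunits, the lowest being -0.62 with nAChRalpha2 (exact permutation p = 0.131, adjusted 0.211; rho -0.79, exact permutation p = 0.048, adjusted 0.12). Without the 2 cultures farthest from the median of nAChRalpha2, r was -0.87. None of its 9 pairs passed an adjusted p of 0.05. The gene nAChRbeta3 had a median r of 0.14 with the other 9, at counts that leave a large counting error. Within the group on chromosome 3R, nAChRalpha1 and nAChRalpha2 had an r of 0.80 with each other (exact permutation p = 0.0327, adjusted 0.0775; rho 0.89, exact permutation p = 0.0123, adjusted 0.0554; r without 2 cultures 0.61). Both had a negative r with nAChRbeta2. None of these 3 pairs passed, and differences between correlations were not tested.

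**Figure D3:**
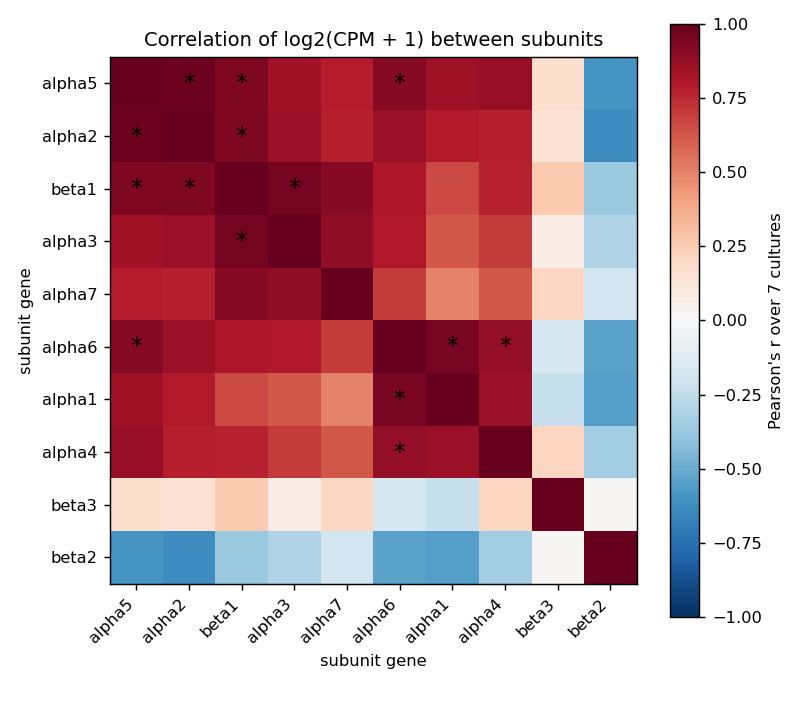
Pearson's r of log2(CPM + 1) over 7 cultures for each pair of subunits, from blue (negative) to red (positive), with a star where the adjusted p of the exact permutation test is under 0.05. The 8 genes other than nAChRbeta2 and nAChRbeta3 form a red block holding the 7 starred pairs, and the row of nAChRbeta2 is blue for 8 of its 9 partners.

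The level of each gene was then set against the neuron score by the edgeR quasi-likelihood test over 9476 genes, with Benjamini-Hochberg adjustment. The score holds none of the subunits, and a slope is the log2 change of the gene per log2 unit of the score, whose whole range over the 7 cultures was well under 1 unit. In a bulk culture fewer neurons and less RNA per neuron cannot be told apart. Of the 10 subunits 4 rose with the score and none fell, where 1.18% of all genes rose and 0.0422% fell. The steepest was nAChRalpha5 with 3.02 ± 0.475 (SE; adjusted p = 0.0122 by edgeR), followed by nAChRalpha3 with 2.34 ± 0.435 (adjusted p = 0.02), nAChRalpha6 with 2.19 ± 0.493 (adjusted p = 0.0495) and nAChRbeta1 with 1.98 ± 0.397 (adjusted p = 0.0293). The median slope of the 10 was 1.33, against a value near 0 for all genes. For the 12 neuron markers that make up the score it was 0.78, and 3 of these 12 rose. The slopes that did not pass were 1.34 ± 0.482 for nAChRalpha4, 1.32 ± 0.320 for nAChRalpha7, 0.93 ± 0.375 for nAChRalpha1, 0.63 ± 0.313 for nAChRalpha2, 0.32 ± 1.55 for nAChRbeta3 and -0.17 ± 0.333 for nAChRbeta2, with adjusted p from 0.0677 to 0.954 by edgeR. Whether the slopes differ between subunits was not tested. With DESeq2, which called 4.25% of all genes in either direction, nAChRalpha7 passed as well.

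The calls depended on the library of 28537973 counts, which had the lowest score. It had the highest summed glia markers, but not their highest mean log2(CPM + 1). The part of glial RNA in the slopes was not tested. Without it, edgeR called 0 of 9556 genes (819 at an unadjusted p under 0.05) and 0 of the 10 subunits (6 at an unadjusted p under 0.05, lowest adjusted p 0.284). The slopes of the 4 called subunits were then 3.95 for nAChRalpha5, 3.54 for nAChRalpha6, 2.13 for nAChRalpha3 and 1.90 for nAChRbeta1. With each of the other libraries left out, 1 subunit was called without that of 33891136 counts, 2 without that of 28628408, 25149314 or 21178515, 3 without that of 25710679 and 4 without that of 26847346 counts. The gene nAChRalpha3 was called in all 6 of these fits.

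Marker lists of other cells also had positive median slopes on the neuron score, with 2.38 for 6 muscle genes, 4.33 for 12 photoreceptor genes, 6.47 for 3 yolk genes, 4.00 for 2 fat body genes and 1.43 for 3 hemocyte genes, none of which passed the test. The medians were 0.07 for 8 glia genes and -0.35 for 8 neuroblast genes. Their part in the slopes of the subunits was not tested. On the photoreceptor score, the mean log2(CPM + 1) of the photoreceptor markers, 0.96% of all genes rose and 0.0211% fell by edgeR. None of the 10 subunits passed by edgeR or by DESeq2, and none had an unadjusted p under 0.05 by either, with slopes from -0.03 for nAChRbeta2 to 0.19 for nAChRbeta3. Without the library of 26847346 counts no subunit passed either.

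**Figure D4:**
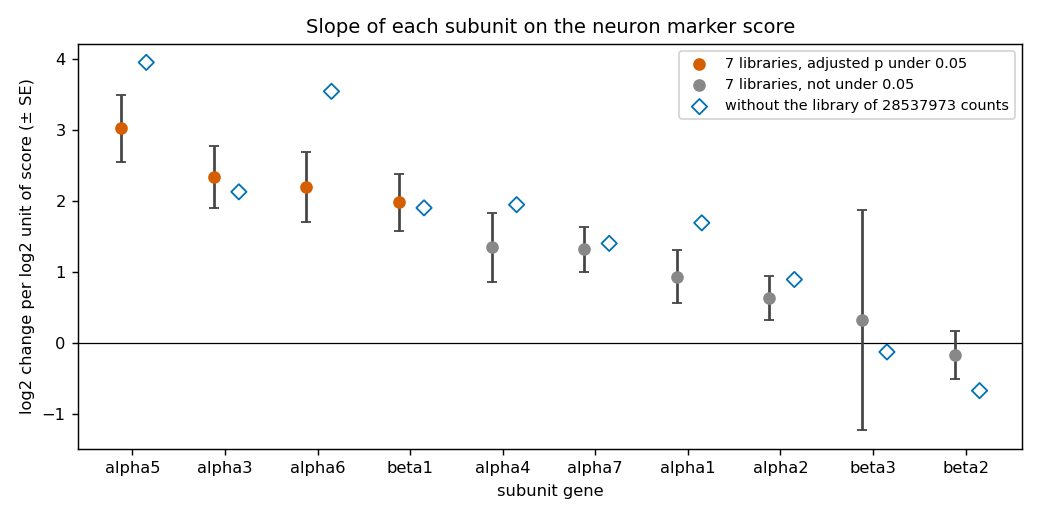
Slope of each subunit on the neuron score (log2 change per log2 unit), with the SE as bars over 7 libraries and, as open diamonds, the slope without the library of 28537973 counts. The 4 genes with an adjusted p under 0.05 (orange) have slopes of 1.98 to 3.02, and nAChRbeta2 lies below 0 in both fits.

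**Figure D5:**
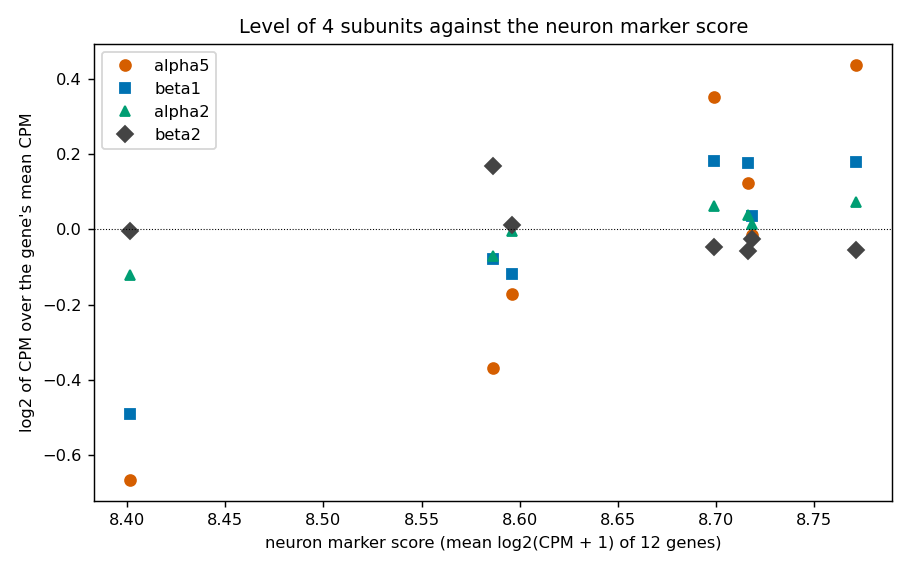
Log2 of the CPM of nAChRalpha5, nAChRbeta1, nAChRalpha2 and nAChRbeta2 over the mean CPM of each gene, against the neuron score of the culture, with 1 point per library. The culture with a score of 8.40 holds the lowest point of nAChRalpha5, nAChRbeta1 and nAChRalpha2, while the highest point of nAChRbeta2 is at a score of 8.59.

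Other genes of the same signalling were detected alongside the subunits. Among the genes of acetylcholine handling and muscarinic receptors, 6 of 7 were detected, led per kb of exon by the muscarinic receptor mAChR-A at 22.6 ± 2.50, the vesicular acetylcholine transporter VAChT at 17.6 ± 5.58 and the muscarinic receptor mAChR-B at 15.6 ± 1.88 CPM per kb (SD, n = 7). The muscarinic receptor mAChR-C was at 0 counts in 3 libraries. Of the 6, VAChT (slope 3.11 ± 0.671, adjusted p = 0.0403 by edgeR) and the choline transporter ChT (2.77 ± 0.599, adjusted p = 0.0403 by edgeR) rose with the neuron score.

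The anion channels of the same cys-loop family, which include channels opened by GABA, glutamate or histamine, were detected in 10 of 12 cases. The highest per kb of exon were Lcch3, a GABA receptor subunit, at 52.0 ± 5.98, the glutamate-gated GluClalpha at 12.4 ± 2.94 and the GABA receptor Rdl at 10.1 ± 2.44 CPM per kb (SD, n = 7). The histamine channel ort and CG6927 each had 0 counts in 1 library. Rdl (slope 2.70 ± 0.500, adjusted p = 0.02 by edgeR) and GluClalpha (2.62 ± 0.483, adjusted p = 0.0199 by edgeR) rose with the neuron score and the other 8 did not pass.

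The list of receptor accessory genes held chaperones and Ly6 or matrix proteins, and whether each acts on nicotinic receptors was not tested. Its 10 genes were all detected, and none rose or fell with the neuron score. The highest was hig, a synaptic cleft matrix protein of cholinergic synapses, at 147 ± 14.9 CPM per kb of exon, followed by RIC-3, a chaperone of nicotinic receptor assembly, at 32.6 ± 2.82 and the Ly6 protein crim at 23.7 ± 2.24 CPM per kb (SD, n = 7). Their slopes were -0.78 ± 0.361, -0.67 ± 0.362 and -0.46 ± 0.558. The slopes of all 10 genes were mixed in sign, from -1.27 to 2.65, with a median of -0.56. The editing enzyme Adar had 120 ± 7.85 CPM (SD, n = 7).

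The genes whose log2(CPM + 1) was most like the summed level of the subunits, among 6412 genes with at least 10 CPM on average, were CG42450 (r = 0.99), CG32204 (r = 0.98), the protein kinase A regulatory subunit gene Pka-R2 (r = 0.97), CG6180 (r = 0.97) and the RNA-binding protein gene Rbfox1 (r = 0.97), over 7 libraries. They had 316 ± 33.0, 17.7 ± 4.39, 187 ± 15.7, 41.7 ± 1.58 and 315 ± 35.3 CPM in this order (SD, n = 7). These 5 are the extreme of many genes compared over few libraries and were given no test.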

How the data were processed

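RNA of 7 control cultures was analysed. The deposited values are raw counts of reads on each gene, made by the authors with featureCounts, 1 column per library. The labels name the dm6 assembly. Neither aligner, annotation nor strand setting is given in the sources used here, and the labels and the methods differ on the library kit and read length. Another 8 columns of per-sample values match no sample used here and were not used. Each column was matched to the condition only.

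Counts were divided by the library total to give CPM, with a pseudocount of 1 CPM, or 0.1 CPM per kb, on the log2 scale. Genes with 10 or more counts in each of the 7 libraries were taken as detected. Symbols, coordinates and exon, coding and 3′ UTR lengths came from BDGP6.54 (Ensembl release 115), which named 17626 of 17753 identifiers. No sequence was used. Slopes were fitted with edgeR 4.0.16 (quasi-likelihood, TMM), tested on simulated data, and with DESeq2 1.42.0 as an alternative, in R 4.3.3. In the simulated data, changes of 1.5, 2 and 4 times between the extreme cultures were recovered in 0%, 41.5% and 85.5% of changed genes for the neuron score. For the photoreceptor score the shares were 1.5%, 47% and 84.5%, so small changes could be missed. In each simulation 200 of 9476 genes were changed. Unchanged genes called in the same order were 0, 4 and 10 for the neuron score and 5, 5 and 13 for the photoreceptor score. The sign-flip and permutation tests and other steps used Python 3.11.15, numpy 2.4.6, pandas 2.3.3 and scipy 1.17.1. Alternatives were other scalings, lengths and pseudocounts, no filter, DESeq2, and each library left out.

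The subunits, the other lists and the markers were chosen with earlier results of these data known. Named besides the subunits are the 3 genes with the highest mean CPM per kb of each other list, those under 10 counts in a library, the 5 genes most like the summed level, and elav, repo, ninaE and Mhc. ChT, Adar, Ets21C, CG1636, lncRNA:CR46475 and CG31128 were named after values had been seen.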

Additional observations from a re-analysis of the deposited data

Results flagged for a closer look

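The level of nAChRbeta2 in the library of 25149314 counts was 154 CPM, against 132 to 138 CPM in the other 6 libraries. The gap to the next library was 0.711 of the range of the 7 values, above Dixon's critical value. Chance alone puts about 1 gene in 20 past this limit, and 637 of 9476 genes (6.72%) passed it here.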

How the results depend on the processing

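No analysis that pairs samples between groups was possible because the 7 cultures all belong to 1 group. Only the levels of subunit pairs were compared within each culture. The mean CPM of every subunit moved by less than 1 SD under TMM scaling, DESeq2 size factors and each library left out. The count of subunit pairs that differ in level was 42 to 43 as each library was left out. Per kb of coding sequence in place of exon, 10 log2 differences changed sign: nAChRalpha1 over nAChRalpha2 (1.82), nAChRalpha7 (0.64) and nAChRbeta2 (1.21), nAChRalpha2 over nAChRalpha4 (-0.11), nAChRalpha6 (-0.22), nAChRalpha7 (-1.18) and nAChRbeta2 (-0.61), nAChRalpha4 over nAChRalpha6 (-0.10), and nAChRalpha5 (0.36) and nAChRalpha6 (1.13) over nAChRbeta1. With the longest transcript, nAChRalpha4 over nAChRbeta1 became -0.12. Leaving out 1 library gave -0.085 to 0.0067 for nAChRalpha1 over nAChRbeta2.

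The number of correlated pairs was 20 with TMM scaling, 21 with DESeq2 size factors and 0 to 13 with each library left out, where 1 pair alone cannot pass (smallest adjusted p 0.0625) and the r of the 7 pairs stayed at 0.83 to 0.99. On the neuron score, DESeq2 called 403 genes. Leaving out 1 library gave 0 to 157 genes and 0 to 4 subunits called, and a slope of -0.13 to 0.90 for nAChRbeta3. On the photoreceptor score, 193 genes were called by DESeq2, 159 without the filter on low counts and 11 to 194 with 1 library left out. The slope of nAChRalpha1 on it became 0.0024 with a pseudocount of 0.1 CPM. Leaving out 1 library gave slopes of -0.023 to 0.13 for nAChRalpha1, -0.0025 to 0.10 for nAChRalpha3 and -0.017 to 0.20 for nAChRalpha6. The causes were not tested, except that the length alternatives divide by other lengths. With 6 libraries the smallest sign-flip p is 0.03125. Depth limits nAChRbeta3, where counting error is over 10% per library.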
